A study of Mus musculus with 12 samples.

Results

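The spliceosome, the complex that removes introns from precursor mRNA, is built from small nuclear ribonucleoproteins (snRNPs), and 39 genes for the core proteins of these particles were examined in 2-cell mouse embryos. The genes were taken by symbol, not by measured values: a probe set of the array counted for a gene when its platform annotation named that gene and no other, and the brightest probe set represented the gene. Of the 39 genes, 35 could be measured in this way, out of 18163 genes on the array. Snrpd1, Snrpd2 and Lsm5, which encode Sm and LSm ring proteins, and Snrpa, which encodes a U1 protein, lie only on probe sets that carry more than 1 gene symbol and were not named here.

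Each snRNP holds a small nuclear RNA and its own set of proteins. Rings of Sm proteins close around the U1, U2, U4 and U5 RNAs, and a related ring of LSm proteins holds the end of U6. The U1 snRNP pairs with the start of an intron, U2AF finds its end, and the U2 snRNP with its SF3a and SF3b subcomplexes takes up the branch site. The U4/U6 and U5 snRNPs then join as a tri-snRNP, the U5 helicase Brr2 unwinds U4 from U6, and the Prp19 complex holds the activated spliceosome together. At the 2-cell stage these proteins come from maternal stores and from the newly activated embryonic genome, whose transcripts have to be spliced.

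Gene expression was measured on 12 Affymetrix arrays in 4 groups of 3. Oct4-MO embryos had received a morpholino oligonucleotide (MO) against the translational start of Oct4, the transcription factor encoded by Pou5f1, and Ccna2-MO embryos one against Ccna2, which encodes cyclin A2. Each group had its own uninjected controls, taken from the same pool of embryos and cultured beside it without injection. The study used the Ccna2-MO embryos on the arrays as its control for injection and for a transcript bound by a morpholino. All embryos were wild type and came from F1 females (C57BL6xDBA/2) of 3 to 5 weeks after superovulation and mating with wild type males. One-cell embryos were recovered 17 hours after hCG from 3 to 6 females per pool, and both MOs were injected into the cytoplasm at 0.6 mM according to the sample labels. The methods state a higher concentration for Ccna2-MO than for Oct4-MO, so the doses may have differed. Each array held 20 pooled embryos at the mid-2-cell stage, and RNA equal to 10 embryos was amplified in 2 rounds. No array held embryos injected with a mismatch MO, so what both knockdowns share cannot be told apart from the injection itself. MOs block translation and need not change the level of their target, and Pou5f1 was 2289, 1825 and 2466 in Oct4-MO embryos, against 1798, 1859 and 2112 in uninjected embryos. Ccna2 was 3183, 3205 and 4398 in Ccna2-MO embryos, against 3949, 3444 and 4222 in uninjected embryos.

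Values are intensities on a linear scale as normalized by the authors, and fold changes are differences of log2(intensity + 16). Array medians were 22.7 to 25.5, and intensities under 16 made up 39.3 to 42.7% of an array. All 35 snRNP genes lay above the median level of all probe sets, as did 11417 genes in total, called the brighter genes here. Of the 10 genes listed as markers of oocytes and early embryos, 9 were measured, and their summed intensity was 10694 to 11825 in Oct4-MO, 12021 to 14296 in Ccna2-MO, 11282 to 11666 in uninjected Oct4-MO experiment and 12441 to 13387 in uninjected Ccna2-MO experiment arrays. These sums, mostly Dppa3 and Bmp15, cover single genes that differed in both knockdowns. Zar1 was 297 to 309 in Oct4-MO arrays, against 61.6 to 96.9 in uninjected arrays, and 196 to 551 in Ccna2-MO arrays, against 36.1 to 105, with log2 fold changes of 1.85 (adjusted p = 0.12) and 2.19 (adjusted p = 0.033) and a mean of 2.02 (adjusted p = 0.0067). Gdf9 was higher without overlap in both knockdowns, with a mean of 0.55 (adjusted p = 0.055), and Dppa3 fell in the mean by 0.17 on the log2 scale (adjusted p = 0.047, and 0.053 with the pair as a block). Of the 7 genes listed as markers of the 2-cell embryo, 2 were measured, Tdpoz1 and Zfp352. Their sum was 4057 to 5200 in Oct4-MO arrays, against 4299 to 4719 in uninjected arrays. In Ccna2-MO arrays it was 4497 to 4857, against 3264.5 to 4152, without overlap. Zfp352 changed by 0.07 in Oct4-MO embryos and by 0.48 (adjusted p = 0.13) in Ccna2-MO embryos, there without overlap. Tdpoz1 overlapped in both, at 0.04 and 0.05. The 9 measured of 10 cumulus and granulosa markers summed to 543 to 801 in Oct4-MO and 488 to 1306 in Ccna2-MO arrays, against 586 to 649 and 696 to 1077 in the uninjected arrays of the 2 experiments. Most of this came from Cyp11a1 and Amhr2. Cyp11a1 lay higher without overlap in both knockdowns, with changes of 1.24 and 1.65 and a mean of 1.45 (adjusted p = 0.070), while Amhr2 overlapped, at -0.53 and -0.52, and Fshr stayed between 1.16 and 5.7. The 6 sperm markers summed to 330 to 364 in Oct4-MO and 224 to 304 in Ccna2-MO arrays, against 242 to 290 and 206 to 248 in the uninjected arrays of the 2 experiments. The part of these other transcripts in the results was not tested.

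Most snRNP genes lay slightly lower in both knockdowns. In Oct4-MO embryos 27 of 35 genes had a log2 fold change below 0, with a median of -0.15, and in Ccna2-MO embryos 25 of 35, with a median of -0.22. The medians over all 18163 genes were 0.01 and 0.03, and over the 11417 brighter genes -0.02 and 0.02. In total, 22 of the 35 genes lay below 0 in both knockdowns and 5 above 0 in both, where all genes gave 27.3% and 32% and the brighter genes 32.2% and 32%. The knockdowns share no arrays. Since each array held whole pooled embryos, fewer embryos with a transcript and less of it in each cannot be told apart.

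Few single genes passed a test. With limma and Benjamini-Hochberg adjustment over 44937 probe sets, 0 of 35 genes were called at an adjusted p under 0.05 in Oct4-MO embryos, where 0.0275% of all genes were called higher and 0.0661% lower (0.035% and 0.105% of the brighter genes). At an unadjusted p under 0.05, 2 genes were higher and 7 lower, against 4.66% and 5.96% of all genes and 5.45% and 8.64% of the brighter genes. In Ccna2-MO embryos 0 of 35 were called, where 0.462% of all genes were called higher and 0.468% lower (0.683% and 0.736% of the brighter genes). At the unadjusted threshold 2 were higher and 9 lower, against 8.22% and 8.5% of all genes and 10.7% and 11.9% of the brighter genes. The unpaired t statistic is one part of the ranking that the study's methods describe for the arrays; used alone, as an unpaired test with Benjamini-Hochberg adjustment, it also called 0 genes, with 3 higher and 5 lower in Oct4-MO and 2 higher and 3 lower in Ccna2-MO embryos before it. Averaged over both knockdowns, Snrpb2 rose and Prpf4 fell, 1 gene in each direction, where 1.19% of all genes were called higher and 2.02% lower (1.86% and 3.2% of the brighter genes). Before adjustment 2 genes were higher and 12 lower in this mean, against 8.52% and 10.2% of all genes and 11% and 14.9% of the brighter genes.

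These counts and medians moved with single pools. The 7 lower genes of the Oct4-MO comparison became 1 without Oct4-MO replicate 3, 1 without uninjected replicate 1, 2 without uninjected replicate 3 and 3 without Oct4-MO replicate 2, and the Oct4-MO median was -0.35 without Oct4-MO replicate 1 and -0.09 without replicate 2. The 9 lower genes of the Ccna2-MO comparison became 4 without uninjected replicate 3, 6 without uninjected replicate 1 and 6 without uninjected replicate 2, with medians of -0.09, -0.36 and -0.14. Between injected and uninjected pools of the same number the median snRNP gene differed by -0.09, -0.17 and -0.12 in the 3 Oct4-MO pairs and by 0.07, -0.28 and -0.47 in the 3 Ccna2-MO pairs. With quantile normalization 23 genes in place of 27 lay below 0 in Oct4-MO embryos, with a median of -0.08.

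**Figure D1:**
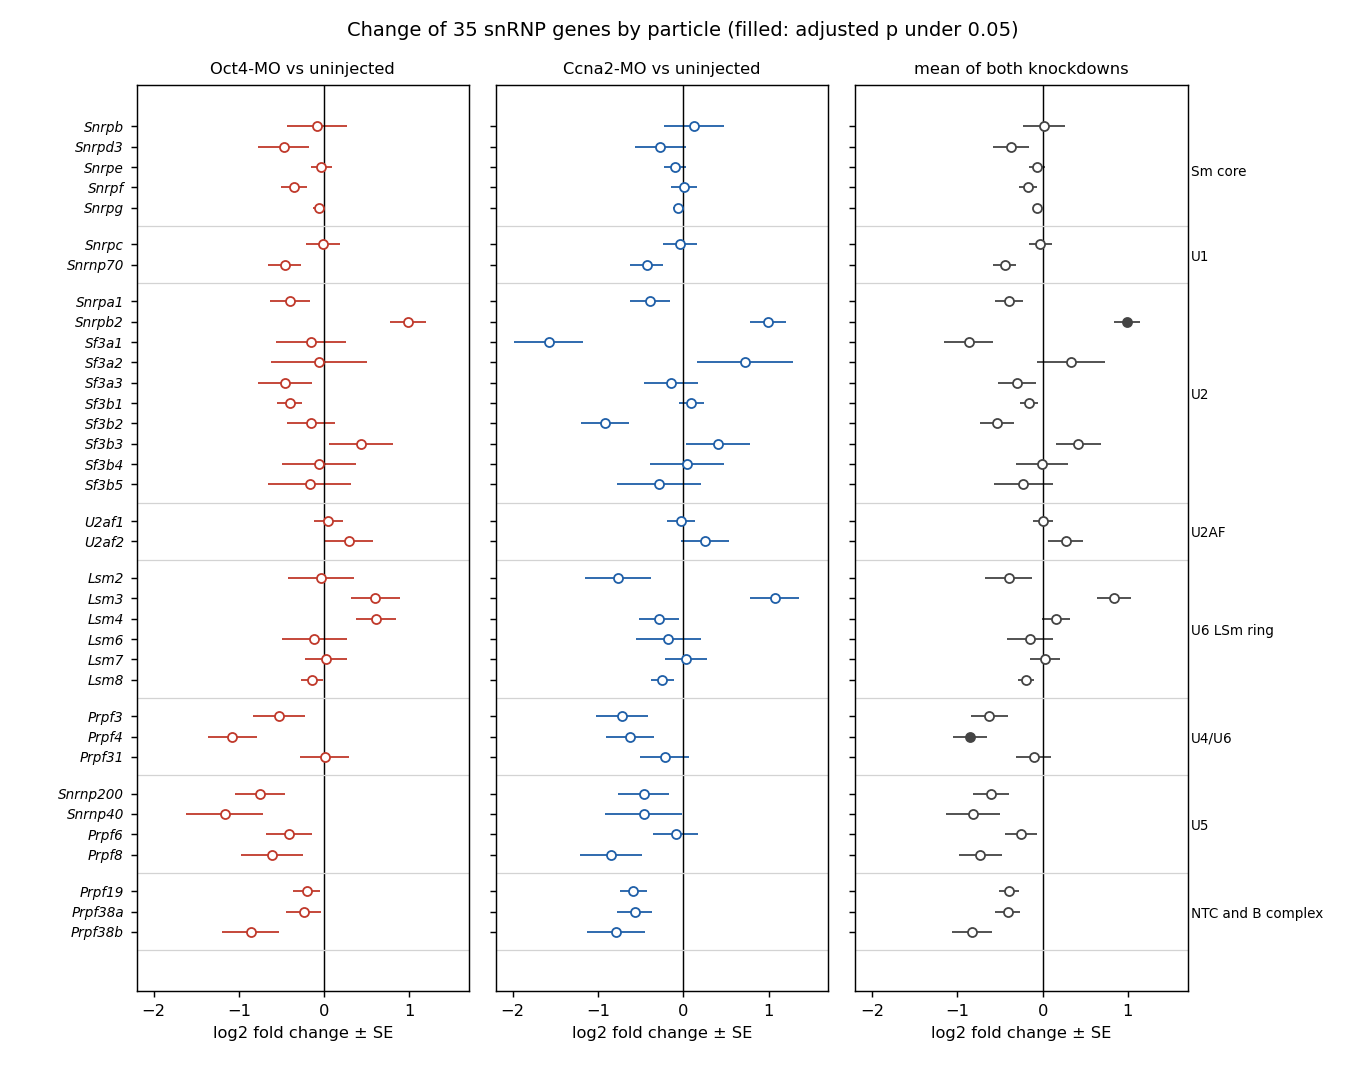
Log2 fold change (x axis, with its standard error) of the 35 snRNP genes, grouped by particle from top to bottom, in Oct4-MO embryos, in Ccna2-MO embryos and in the mean of both, each against uninjected embryos (n = 3 arrays per group). Filled points passed an adjusted p of 0.05, which only Snrpb2 (0.99) and Prpf4 (-0.85) did, both in the mean, and the U5 genes all lie left of 0 in every panel.

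The Sm core lay close to its controls. Of the 7 Sm genes 5 were measured, and their median log2 fold change was -0.09 with Oct4-MO and -0.06 with Ccna2-MO. Snrpg, the SmG protein, was 5827, 5089.9 and 5512 in Oct4-MO embryos, against 5612, 5610.1 and 5957 in uninjected embryos, and its log2 fold change was -0.07. The Ccna2-MO pools had 5771, 5862 and 6151, against 6276, 6095 and 6194, a change of -0.06. The standard error of 0.06 was the smallest of the 35 genes. Snrpe, the SmE protein, changed by -0.03 and -0.10 (SE 0.13 each), and Snrpb, the SmB protein, by -0.09 and 0.12 (SE 0.35 each). Snrpf, the SmF protein, had 1291, 1305 and 1188 in Oct4-MO embryos, against 1704, 1495 and 1655 in uninjected embryos. These groups did not overlap, and the change was -0.35 (SE 0.15, adjusted p = 0.49), whereas in Ccna2-MO embryos it was 0.01 (SE 0.15, adjusted p = 0.99). Snrpd3, the SmD3 protein, also lay lower in every Oct4-MO pool, at 899.8, 696 and 1199 against 1295, 1296 and 1214, a change of -0.47 (SE 0.30, adjusted p = 0.70). In Ccna2-MO embryos it overlapped its controls, at 1149.9, 851 and 585 against 648, 1418 and 1101.

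Of the U1 proteins, Snrnp70 (U1-70K, which binds the first stem of the U1 RNA) lay lower in both knockdowns and Snrpc (which steadies the pairing of U1 with the 5′ splice site) was near 0. Snrnp70 was 833, 611 and 718 in Oct4-MO embryos, against 1149, 812 and 1039 in uninjected embryos, a log2 fold change of -0.46 (SE 0.19, adjusted p = 0.49). With Ccna2-MO it was 846, 604 and 884, against 989.96, 1086 and 1040.4, a change of -0.43 (SE 0.19, adjusted p = 0.35). It was lower in all 6 pairs of pools, and only in the Ccna2-MO experiment did the groups not overlap. Snrpc changed by -0.01 and -0.04 (SE 0.20 each).

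The U2 snRNP held the one gene called higher in the mean of both knockdowns. Snrpb2 encodes U2B″, which binds a stem loop of the U2 RNA together with the product of Snrpa1. It was 1280.00, 1540.4 and 1366 in Oct4-MO embryos, against 675, 748 and 668 in uninjected embryos. In Ccna2-MO embryos it was 1148, 999 and 696, against 399, 607 and 398 in uninjected embryos. Every injected pool lay above every uninjected pool of its experiment. The log2 fold change was 0.98 (SE 0.22, adjusted p = 0.13) with Oct4-MO and 0.99 (SE 0.22, adjusted p = 0.057) with Ccna2-MO. Neither passed alone, but the mean of both, 0.99 (SE 0.15, adjusted p = 0.010), did (adjusted p = 0.020 with the pair as a block). It kept an adjusted p of 0.0051 to 0.040 in all 21 alternatives. With the mean of its probe sets the change was 0.95 with Oct4-MO, 0.34 with Ccna2-MO and 0.64 in the mean.

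Another probe set of Snrpb2 passed the test in Oct4-MO embryos but not in Ccna2-MO embryos. It had 1101, 1113 and 1329 in Oct4-MO embryos, against 444, 373 and 459 in uninjected embryos, a log2 fold change of 1.44 (SE 0.23, adjusted p = 0.048). This was the only member probe set past the threshold in a single knockdown, and with the pair as a block its adjusted p was 0.12. The call was lost in 16 of 23 alternatives, with an adjusted p of up to 0.23. The Ccna2-MO pools had 437, 666 and 520.2, against 607, 425 and 345, and the change was 0.25 (SE 0.23, adjusted p = 0.69). The difference between the knockdowns on this probe set was 1.19 (SE 0.33, adjusted p = 0.59) and did not pass. A further Snrpb2 probe set was dim, at 4.06 to 22.9. Snrpa1 lay below 0 in both, with changes of -0.40 (SE 0.23, adjusted p = 0.67) with Oct4-MO and -0.39 (SE 0.23, adjusted p = 0.50) with Ccna2-MO.

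**Figure D2:**
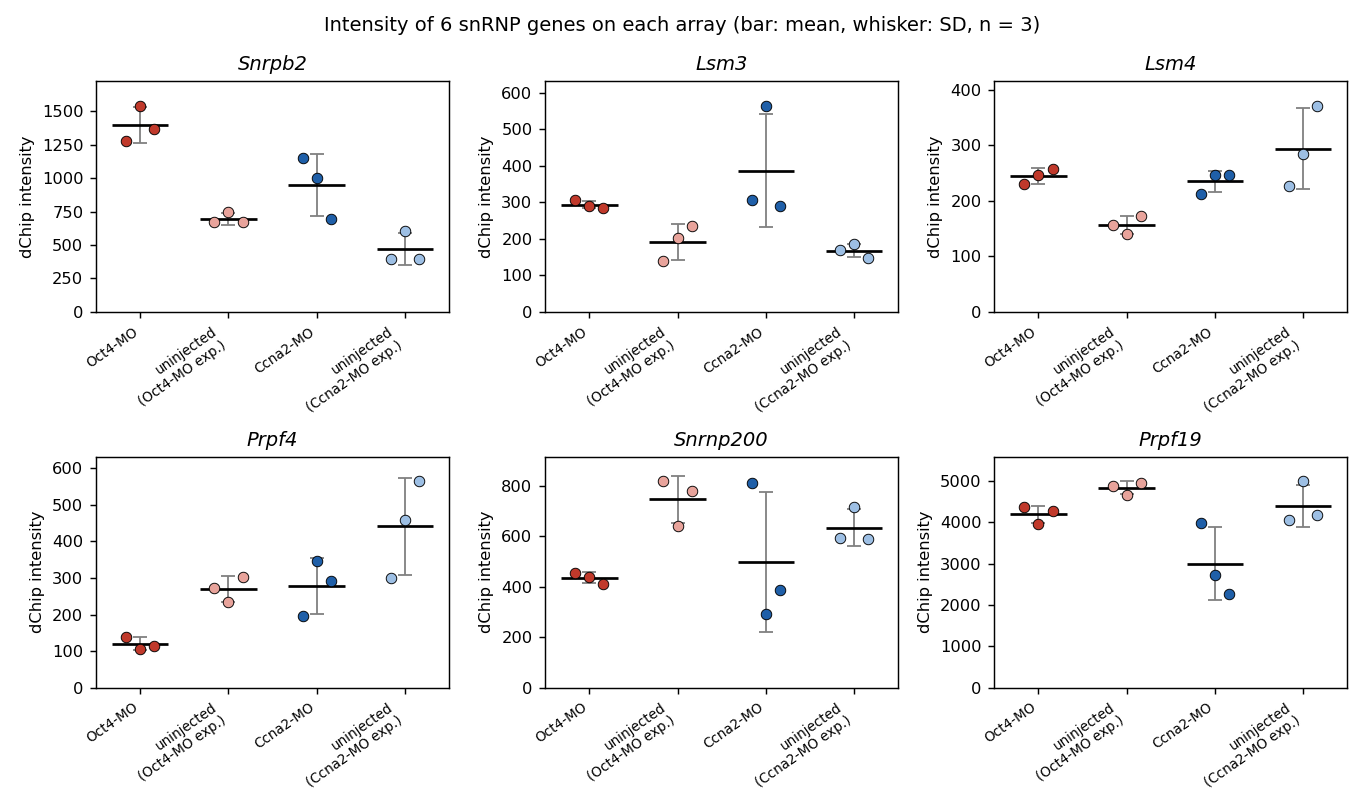
Intensity (linear y axis from 0) of 6 snRNP genes on each of 12 arrays, with Oct4-MO and Ccna2-MO embryos left of their own uninjected embryos, each point being an array, bars the mean and whiskers the SD (n = 3). Snrpb2 and Lsm3 lie above their controls and Prpf19 below them in both experiments without overlap, while Lsm4 lies above its controls only in Oct4-MO embryos.

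SF3a and SF3b, the subcomplexes that hold the U2 snRNP on the branch site, differed between members. Of the 10 U2 genes 8 lay below 0 with Oct4-MO and 5 with Ccna2-MO. Sf3b1, the large scaffold of SF3b that cradles the branch site, was 1772, 1541 and 1268 in Oct4-MO embryos, against 2449, 1787 and 1849 in uninjected embryos. With Ccna2-MO it was 1975, 2210.2 and 2131, against 1821, 2107 and 1989. The Oct4-MO change was -0.40 (SE 0.15, adjusted p = 0.41) without overlap, and the Ccna2-MO change was 0.09 (SE 0.15, adjusted p = 0.84) with overlap.

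Sf3a1 and Sf3b2 lay lower in Ccna2-MO embryos. Sf3a1, the scaffold of SF3a, had 95.5, 25.3 and 102 in Ccna2-MO embryos, against 243, 235 and 208 in uninjected embryos, a log2 fold change of -1.58 (SE 0.41, adjusted p = 0.097). In Oct4-MO embryos it had 98.8, 99.5 and 122, against 202, 94.2 and 88.7, a change of -0.15 (SE 0.41, adjusted p = 0.96). The other 3 Sf3a1 probe sets had Ccna2-MO changes of 0.41, -0.38 and 0.02. Sf3b2, which contacts the pre-mRNA near the branch site, had 806, 474 and 827 in Ccna2-MO embryos, against 1092, 1101 and 1830.02 in uninjected embryos, a change of -0.92 (SE 0.28, adjusted p = 0.15). In Oct4-MO embryos its change was -0.15 (SE 0.28, adjusted p = 0.94). Of its 6 other probe sets 4 had Ccna2-MO changes below 0, between -0.96 and -0.07, and the other 2 were 1.32 and 0.29.

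The rest of the U2 group was less clear. Sf3b3, a WD40-repeat scaffold of SF3b, lay above 0 in both knockdowns, at 0.43 and 0.41 (SE 0.38 each), but its Oct4-MO value rested on 1 pool. It had 227, 597 and 233 in Oct4-MO embryos, against 349, 204 and 173 in uninjected embryos, and without Oct4-MO replicate 2 the change was -0.0078. In Ccna2-MO embryos it had 366, 287 and 239.7, against 251, 244 and 166. Sf3a2 had 184, 328 and 141 in Ccna2-MO embryos, against 107, 42.3 and 318 in uninjected embryos, a change of 0.73 (SE 0.56, adjusted p = 0.62). It was 0.13 without uninjected replicate 2, 1.39 without uninjected replicate 3 and 0.41 without Ccna2-MO replicate 2. Sf3a3, Sf3b4 and Sf3b5, the remaining subunits, changed by -0.46 to -0.06 with Oct4-MO and -0.28 to 0.04 with Ccna2-MO. U2AF, which reads the 3′ end of the intron, did not pass either. U2af2, the subunit that binds the polypyrimidine tract, had 194, 289.5 and 246 in Oct4-MO embryos, against 166, 210.5 and 207 in uninjected embryos, and 272, 187 and 154 in Ccna2-MO embryos, against 136, 147 and 223. The groups overlapped in both, with changes of 0.29 and 0.25 (SE 0.28 each). U2af1, which reads the AG at the splice site, changed by 0.05 and -0.03 (SE 0.17 each).

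In the LSm ring of U6, Lsm3, like Snrpb2, lay higher without overlap in both knockdowns. It had 305, 291 and 285 in Oct4-MO embryos, against 139, 202 and 235 in uninjected embryos. The Ccna2-MO pools had 305, 564 and 289, against 169.6, 185 and 149. The groups overlapped in neither experiment, and the injected pool was higher in all 6 pairs. The log2 fold change was 0.60 (SE 0.29, adjusted p = 0.56) with Oct4-MO and 1.07 (SE 0.29, adjusted p = 0.11) with Ccna2-MO, and the mean of both was 0.84 (SE 0.20, adjusted p = 0.053). That mean just missed the threshold, and it passed in 7 of 21 alternatives. Lsm3 has 1 probe set, as has Lsm4.

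The other LSm genes did not share this pattern. Lsm4 had 230.2, 247 and 258 in Oct4-MO embryos, against 156, 139.8 and 172 in uninjected embryos, without overlap and with a change of 0.60 (SE 0.23, adjusted p = 0.44). With all 6 uninjected arrays as controls it was 0.19 (adjusted p = 0.81). With Ccna2-MO it had 213, 246 and 246, against 227, 285 and 371, a change of -0.28 (SE 0.23, adjusted p = 0.65). Lsm2 had 328, 244 and 298 in Ccna2-MO embryos, against 826, 236 and 631 in uninjected embryos, where 1 uninjected pool lay below every injected one, and its change was -0.76 (SE 0.39, adjusted p = 0.41). In Oct4-MO embryos the Lsm2 change was -0.03 (SE 0.39). Lsm6, Lsm7 and Lsm8, the last of which sets this nuclear ring apart from the cytoplasmic ring of mRNA decay, changed by -0.15 to 0.02 with Oct4-MO and -0.24 to 0.03 with Ccna2-MO.

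Among the classes of the core genes, those of the tri-snRNP had the lowest medians in the mean of both knockdowns, -0.62 for U4/U6 and -0.67 for U5. The 9 other tri-snRNP genes measured had medians of -0.34 with Oct4-MO and 0.01 with Ccna2-MO, with 8 and 4 below 0. In the mean of both knockdowns the median of these other genes was -0.13. The 3 U4/U6 genes had a median log2 fold change of -0.53 with Oct4-MO and -0.63 with Ccna2-MO, and the 4 U5 genes -0.68 and -0.47. Prpf4 encodes a WD40 protein that, with the product of Prpf3, bridges the U4 and U6 RNAs. It was 139.8, 105 and 114 in Oct4-MO embryos, against 273, 233 and 303 in uninjected embryos. In Ccna2-MO embryos it was 197, 346 and 291, against 299.6, 459 and 564 in uninjected embryos. The groups separated in Oct4-MO embryos, overlapped in Ccna2-MO embryos, and the injected pool was lower in all 6 pairs. The log2 fold change was -1.07 (SE 0.29, adjusted p = 0.21) with Oct4-MO and -0.63 (SE 0.29, adjusted p = 0.35) with Ccna2-MO. The mean of both, -0.85 (SE 0.20, adjusted p = 0.049), passed by a narrow margin (adjusted p = 0.045 with the pair as a block). The call was lost in 15 of 21 alternatives, among them the leaving out of any array but uninjected Ccna2-MO experiment replicate 1, and the adjusted p ranged from 0.027 to 0.13. The other Prpf4 probe set had lower values, at 9.82 to 84.9, and changed by -0.02 and -0.19 (SE 0.46 each). With the mean of its probe sets, the Prpf4 change in the mean of both knockdowns was -0.48 (adjusted p = 0.099).

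Prpf3 also lay lower in all 6 pairs. It had 341, 237 and 151 in Oct4-MO embryos, against 415, 280.4 and 341 in uninjected embryos, and 224, 315 and 197 in Ccna2-MO embryos, against 503, 386 and 344. The groups overlapped in Oct4-MO embryos and separated in Ccna2-MO embryos, with changes of -0.53 (SE 0.30, adjusted p = 0.66) and -0.72 (SE 0.30, adjusted p = 0.31). Prpf31, which joins U4/U6 to U5, changed by 0.01 and -0.22 (SE 0.29 each).

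All 4 U5 genes had changes below 0 in both knockdowns. Snrnp200, the Brr2 helicase that unwinds U4 from U6, had 455, 439 and 412 in Oct4-MO embryos, against 818, 641 and 781 in uninjected embryos, without overlap. The Ccna2-MO pools had 813, 292 and 389, against 594, 718 and 592, with 1 injected pool above all its controls. The changes were -0.75 (SE 0.30, adjusted p = 0.45) and -0.47 (SE 0.30, adjusted p = 0.53). Snrnp40, a WD40 protein of U5, had 264, 140.2 and 80.8 in Oct4-MO embryos, against 488, 232 and 367 in uninjected embryos, with overlap and a change of -1.17 (SE 0.45, adjusted p = 0.44). With Ccna2-MO it had 246, 130.3 and 184, against 166, 221 and 450.1, a change of -0.47 (SE 0.45, adjusted p = 0.70). Prpf8, the scaffold at the catalytic centre, had 97.4, 139 and 141 in Ccna2-MO embryos, against 159.6, 318 and 258 in uninjected embryos, without overlap and with a change of -0.85 (SE 0.36, adjusted p = 0.31). In Oct4-MO embryos it had 149, 137 and 68, against 159, 137 and 266, a change of -0.61 (SE 0.36, adjusted p = 0.67). Prpf6, which bridges U5 and U4/U6, changed by -0.41 (SE 0.27, adjusted p = 0.72) in Oct4-MO embryos, without overlap, and by -0.09 (SE 0.27, adjusted p = 0.93) in Ccna2-MO embryos.

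Prpf19 of the Prp19 complex and the B complex genes Prpf38a and Prpf38b lay below 0 in both knockdowns as well, with medians of -0.24 and -0.58. The 14 other genes measured of the Prp19 complex and related to it had medians of -0.18 and 0.07, with 8 and 7 below 0. Prpf19, the ubiquitin ligase that gives the complex its name, had 4369, 3973 and 4264 in Oct4-MO embryos, against 4888, 4659.6 and 4959 in uninjected embryos. In Ccna2-MO embryos it had 3993, 2737 and 2278, against 4053, 4991 and 4177. It lay lower without overlap in both experiments. The change was -0.20 (SE 0.16, adjusted p = 0.79) with Oct4-MO and -0.58 (SE 0.16, adjusted p = 0.11) with Ccna2-MO, with a mean of -0.39 (SE 0.11, adjusted p = 0.090). Single pools moved the Ccna2-MO change, which passed at -0.81 (adjusted p = 0.018) without Ccna2-MO replicate 1 and was -0.41 without Ccna2-MO replicate 3, and its adjusted p reached 0.59 over all alternatives. Its next 2 probe sets by brightness changed by -0.08 each in Oct4-MO and by -0.76 and -0.74 in Ccna2-MO embryos. Prpf38b, a B complex protein, had 454, 395 and 239.6 in Oct4-MO embryos, against 655, 564 and 746 in uninjected embryos, without overlap. The Ccna2-MO pools had 286, 682 and 558, against 1167, 625 and 806, with overlap. Its changes were -0.86 (SE 0.34, adjusted p = 0.45) and -0.79 (SE 0.34, adjusted p = 0.31), and the mean was -0.83 (SE 0.24, adjusted p = 0.096). Prpf38a, a related protein, had 1018, 669 and 872 in Ccna2-MO embryos, against 1258, 1152 and 1372 in uninjected embryos, without overlap and with a change of -0.57 (SE 0.21, adjusted p = 0.23). In Oct4-MO embryos the Prpf38a change was -0.24 (SE 0.21, adjusted p = 0.82).

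**Figure D3:**
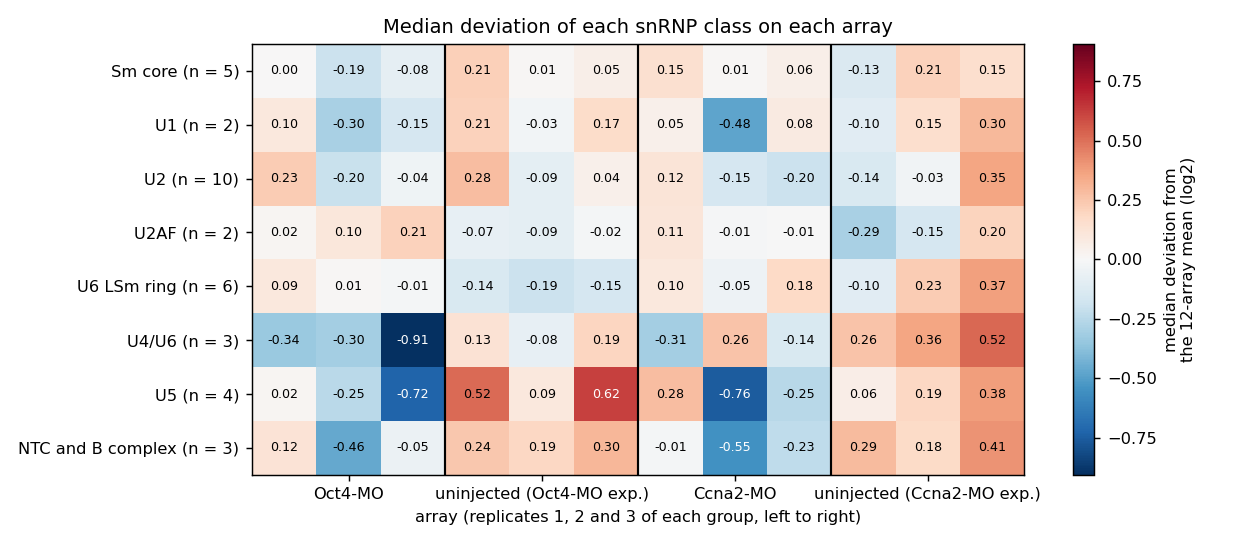
Median deviation (log2, colour and printed value) of the genes of each snRNP class from their 12-array mean, with classes as rows and arrays as columns, Oct4-MO and Ccna2-MO each left of their uninjected embryos. U4/U6 is lowest in Oct4-MO replicate 3 (-0.91) and U5 in Ccna2-MO replicate 2 (-0.76) and Oct4-MO replicate 3 (-0.72), while the Sm core stays between -0.19 and 0.21.

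The lower values of the core U4/U6 and U5 genes were not even across the pools. The U5 genes had a median deviation of 0.02, -0.25 and -0.72 in the 3 Oct4-MO pools, against 0.52, 0.09 and 0.62 in their uninjected pools. In the Ccna2-MO experiment the U5 values were 0.28, -0.76 and -0.25 in injected pools, against 0.06, 0.19 and 0.38 in uninjected pools. The U4/U6 values were -0.34, -0.30 and -0.91 in Oct4-MO pools, against 0.13, -0.08 and 0.19 in uninjected pools. In the Ccna2-MO experiment they were -0.31, 0.26 and -0.14 in injected pools, against 0.26, 0.36 and 0.52 in uninjected pools. Over all 35 genes the median deviation of an array ran from -0.18 to 0.26. That of all genes ran from -0.05 to 0.02, and that of the brighter genes from -0.04 to 0.05.

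Read by overlap, 3 genes lay higher and 8 lower in every Oct4-MO pool than in every uninjected pool, against 9.21% and 9.57% of all genes and 10.3% and 12.5% of the brighter genes. The 3 were Snrpb2, Lsm3 and Lsm4, and the 8 were Snrpd3, Snrpf, Sf3b1, Prpf4, Snrnp200, Prpf6, Prpf19 and Prpf38b. In Ccna2-MO embryos 2 lay higher (Snrpb2 and Lsm3) and 7 lower, against 9.89% and 9.29% of all genes and 11.5% and 12.2% of the brighter genes. The 7 were Snrnp70, Sf3a1, Sf3b2, Prpf3, Prpf8, Prpf19 and Prpf38a. The share of all genes without overlap in both knockdowns was not counted. Over all 6 pairs, 4 genes were lower every time (Snrnp70, Prpf3, Prpf4 and Prpf19) and 2 higher (Snrpb2 and Lsm3), against 6.68% and 5.38% of all genes and 9.7% and 6.87% of the brighter genes.

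The knockdowns were also compared with each other, by the difference of their changes. Of the 35 genes 0 were called, as were 0% of all genes, and 2 lay higher and 1 lower at an unadjusted p under 0.05, against 3.19% and 3.93% of all genes. Lsm4 differed by 0.89 (SE 0.33, adjusted p = 0.69) and Sf3a1 by 1.43 (SE 0.58, adjusted p = 0.71), both above 0, and Sf3b1 by -0.50 (SE 0.21, adjusted p = 0.73). The next smallest p belonged to Sf3b2, which differed by 0.76 (SE 0.39, adjusted p = 0.77). For Snrpb2 the difference was -0.01 (SE 0.30) and for Prpf4 -0.45 (SE 0.40).

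The uninjected groups of the 2 experiments were compared in the same way. Of the 35 genes 0 were called between them, where 0.044% of all genes were called higher in the Oct4-MO experiment and 0.0716% lower, and 1 was higher and 3 lower at an unadjusted p under 0.05 (6.32% and 5.67% of all genes). The unpaired t statistic alone gave 1 and 2. Snrpb2 lay higher in the uninjected embryos of the Oct4-MO experiment without overlap, a log2 difference of 0.59 (SE 0.22, adjusted p = 0.32), and Lsm4 lower, at -0.83 (SE 0.23, adjusted p = 0.21). Lsm2 differed by -0.98 (SE 0.39, adjusted p = 0.36) and Prpf4 by -0.64 (SE 0.29, adjusted p = 0.42), both lower in the Oct4-MO experiment. In all, 1 gene was higher without overlap and 3 lower (Snrpg, Sf3a1 and Lsm4), against 12.3% and 10.4% of all genes.

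**Figure D4:**
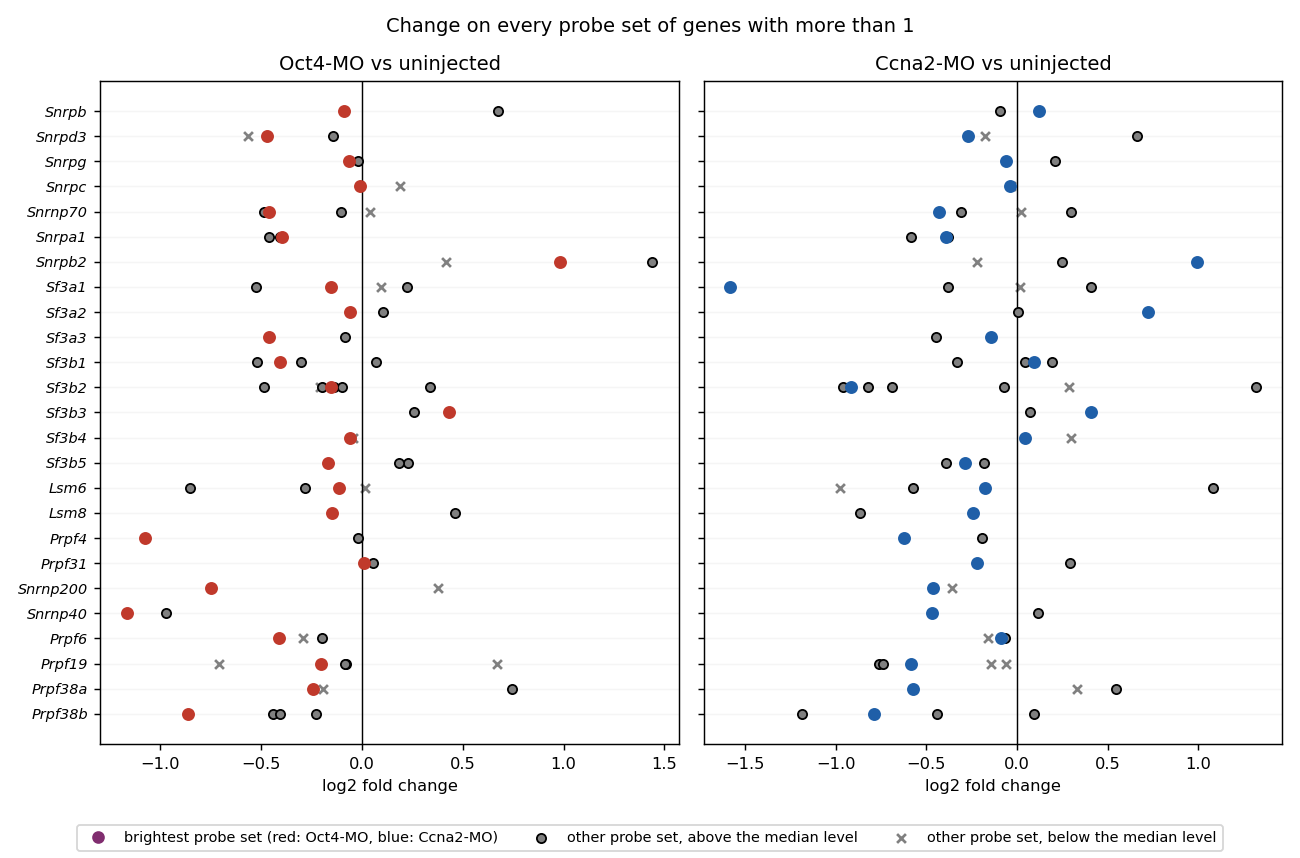
Log2 fold change (x axis) on every probe set of the 25 snRNP genes with more than 1, in Oct4-MO (left) and Ccna2-MO embryos (right) against uninjected embryos. Coloured points are the brightest probe sets, grey circles others above the median level and crosses those below it. Of the 49 other probe sets, 34 in the Oct4-MO panel and 32 in the Ccna2-MO panel lie on the same side of 0 as the brightest.

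The brightest probe set stood for its gene with limits. In all, 84 probe sets named the 35 genes, and 10 genes had a single one. Of the 49 other probe sets of the remaining 25 genes, 34 had the sign of the brightest for Oct4-MO and 32 for Ccna2-MO. Among the 36 above the median level the counts were 27 and 24. With the mean of all probe sets of a gene, the median snRNP change was -0.05 with Oct4-MO and -0.10 with Ccna2-MO, and 21 genes lay below 0 in each.

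Beyond the core, 77 further genes of the splicing machinery were listed and 71 measured: other U1, U2, tri-snRNP and Prp19 complex proteins, helicases, the minor spliceosome, snRNP assembly factors and remaining Sm and LSm proteins. Of these, 51 lay below 0 with Oct4-MO and 49 with Ccna2-MO, with medians of -0.26 and -0.30. In Oct4-MO embryos 0 were called, with 2 higher and 14 lower at an unadjusted p under 0.05, against 4.66% and 5.96% of all genes and 5.45% and 8.64% of the brighter genes. In Ccna2-MO embryos Luc7l3 alone was called, against 0.468% of all genes called lower, with 3 higher and 14 lower before adjustment (8.22% and 8.5% of all genes, 10.7% and 11.9% of the brighter genes). In the mean of both 0 were called higher and 4 lower, against 1.19% and 2.02% of all genes, with 4 higher and 22 lower before adjustment (8.52% and 10.2% of all genes, 11% and 14.9% of the brighter genes). Luc7l3, a U1-associated protein, had 2203, 1908 and 2148 in Ccna2-MO embryos, against 3338, 3160.2 and 3010.1 in uninjected embryos, and fell by 0.60 on the log2 scale (adjusted p = 0.031). In Oct4-MO embryos it had 2265, 2069 and 2302, against 3421, 2749 and 2968, a change of -0.45 (SE 0.10, adjusted p = 0.14). The groups separated in both experiments. With the mean of its probe sets in place of the brightest one, the change in Ccna2-MO embryos was -0.23 (adjusted p = 0.55). The Ccna2-MO call was lost in 10 of 24 alternatives.

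The other 3 genes called in the mean were Wdr77 at -0.88 (SE 0.18, adjusted p = 0.030), Ddx46 at -0.51 (SE 0.12, adjusted p = 0.044) and Smndc1 at -0.43 (SE 0.10, adjusted p = 0.043). Wdr77 encodes MEP50, the partner of the Prmt5 methyltransferase that prepares Sm proteins for ring assembly, Ddx46 the helicase that helps the U2 snRNP onto the branch site, and Smndc1 a U2-associated protein. With the pair as a block the adjusted p was 0.042 for Wdr77, 0.087 for Ddx46 and 0.071 for Smndc1. The call in the mean was lost in 1 of 21 alternatives for Luc7l3, 10 for Wdr77, 15 for Ddx46 and 13 for Smndc1. Wdr77 had 1095, 580.2 and 464 in Oct4-MO embryos, against 1369.7, 1345 and 1526 in uninjected embryos, and 800.1, 767 and 1034 in Ccna2-MO embryos, against 1198, 1576 and 1489.6, without overlap in either.

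None of the remaining genes passed without a block. With the pair as a block 2 more were called lower in the mean of both, Sf3b6, an SF3b subunit at the branch site, at -1.01 (adjusted p = 0.043, and 0.10 without the block), and Zcrb1, a protein of the minor spliceosome, at -0.46 (adjusted p = 0.045, and 0.082 without the block). Of all 18163 genes, 374 were called lower and 149 higher in that mean with the block. Among those with the smallest p, Ppil1 of the Prp19 complex changed by -1.07 (SE 0.29, adjusted p = 0.23) in Oct4-MO embryos and the assembly factor Strap by -0.63 (SE 0.16, adjusted p = 0.10) in Ccna2-MO embryos. Prmt5 itself and the U5 helicase gene Ddx23 had Ccna2-MO changes of -1.33 (SE 0.35, adjusted p = 0.11) and -1.09 (SE 0.29, adjusted p = 0.11). Of those above 0, Snw1, a scaffold of the active spliceosome, and the histone-processing ring proteins Lsm10 and Lsm11 led in Oct4-MO embryos, at 0.64, 0.85 and 0.83. Prpf40b, next by its p, was under 16 on every array and is not read as a change. Lsm1, which takes the place of Lsm8 in the cytoplasmic ring, led in Ccna2-MO embryos at 0.76 (SE 0.24, adjusted p = 0.17), followed by Lsm14a at 0.24, Bcas2 at 0.64 and Phf5a at 0.35. By group, all 7 minor spliceosome genes lay below 0 in both knockdowns, with medians of -0.41 and -0.51. The 5 other U1 genes had medians of -0.25 and -0.46, and the 8 other U2 genes -0.29 and -0.26. The 6 genes of the helicase group had -0.48 and -0.43. Of 9 other tri-snRNP genes, 8 lay below 0 with Oct4-MO and 4 with Ccna2-MO, with medians of -0.34 and 0.01. Of 14 other Prp19 complex and related genes, 8 and 7 lay below 0, with medians of -0.18 and 0.07. Of 15 assembly and import genes, 10 lay below 0 with Oct4-MO and 13 with Ccna2-MO, with medians of -0.26 and -0.66. Of the 7 remaining Sm and LSm genes, 2 and 4 lay below 0, with medians of 0.08 and -0.05.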

How the data were processed

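The members, gene lists and tests were chosen with earlier results of these data known. The deposited values are intensities on a linear scale, 1 per probe set and array, which the authors had normalized with dChip. The dChip version was not given in the sources used here, and neither were its model options. Of 45001 probe sets 64 array controls were left out and 44937 kept. Of these, the platform annotation gives 34849 a single gene symbol, 928 several and 9160 none.

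Intensities were analysed as log2(intensity + 16), which understates changes of dim probe sets. The 12 arrays entered a single limma 3.58.1 fit of 4 group means in R 4.3.3 (8 residual degrees of freedom), with an intensity trend and Benjamini-Hochberg adjustment at 0.05. The steps were tested on simulated data. The p-values rest on the spread between arrays within groups, shared over the 4 groups and moderated by limma toward the intensity trend of all probe sets. The 3 arrays a group bound the precision.

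Values are given for members past the threshold on any probe set, the 4 with the smallest p per comparison and direction, and the member with the largest change of each class; others of the 35 are named to complete the classes. Of the 77 further splicing genes, those past the threshold and the 4 with the smallest p per knockdown and direction are named.

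By the labels, equal numbers mark pools split from one collection of embryos, which makes them pairs. Within pairs, deviations from the group mean correlated by 0.10, 0.061 and -0.00016 (Oct4-MO) and by -0.015, 0.11 and 0.15 (Ccna2-MO). Between injected and uninjected pools of unequal number they correlated by -0.11 to 0.060 (Oct4-MO) and by -0.17 to 0.046 (Ccna2-MO). Where a block for the pair changes a call, its value is given. Alternatives were this block, other controls, arrays, pseudocounts, filters, normalizations, weights, the unpaired t statistic alone, averaging the probe sets of each gene and leaving out each array. The list also named Zrsr2 and another gene, which are not analysed here, and Ppih, Snu13, Gemin4 and Gemin6, which share their probe sets with other symbols.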

Additional observations from a re-analysis of the deposited data

Results flagged for a closer look

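There were 2 members that moved opposite ways in the 2 knockdowns in every pair of pools. The share of all genes that did so was not counted. Sf3b1 was lower in 3 of 3 Oct4-MO pairs and higher in 3 of 3 Ccna2-MO pairs, and its Oct4-MO change minus its Ccna2-MO change was -0.50 on the log2 scale (SE 0.21, adjusted p = 0.73 by limma). Lsm4 was higher in 3 of 3 Oct4-MO pairs and lower in 3 of 3 Ccna2-MO pairs, with a difference of 0.89 (SE 0.33, adjusted p = 0.69 by limma). Neither difference passed the test. Of the other 3 Sf3b1 probe sets, the Oct4-MO changes were -0.30, -0.52 and 0.07 and the Ccna2-MO changes -0.33, 0.05 and 0.19. Lsm4 has 1 probe set, and its uninjected groups differed by -0.83 (Oct4-MO experiment minus Ccna2-MO experiment), a size close to that of the difference between the knockdowns.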

How the results depend on the processing

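In Oct4-MO embryos the count of members called, 0, became 2 with all 6 uninjected arrays as controls (Snrpb2 and Prpf4) and 1 with array weights (Snrpb2), and stayed 0 without each array in turn. In Ccna2-MO embryos the 0 became 1 with all 6 uninjected arrays (Prpf19) and 1 with the brighter probe sets alone (Snrpb2), and ranged from 0 to 1 without single arrays. In the mean of both, the 2 became 1 with 64 added before log2, 1 with quantile normalization, 1 with median centring, 4 with the brighter probe sets and 4 with array weights (each time Snrpb2, Lsm3, Prpf4 and Prpf19), and ranged from 1 to 4 without single arrays. The 4 without Ccna2-MO replicate 1 were Snrpb2, Lsm3, Snrnp200 and Prpf19. Over all 44937 probe sets, 1043 were called in the mean of both. This became 964 with 64 added, 1136 with quantile normalization, 1104 with median centring and 1399 with array weights. It was 948 with the pair as a block, 1133 without Ccna2-MO replicate 1, and 199 to 1377 without single arrays. Of the 22469 brighter probe sets alone, 1853 were called. The counts for the difference between knockdowns and between uninjected groups stayed at 0 in all 21 and 22 alternatives. With the pair as a replicate block, the counts of members called were 0 in Oct4-MO, 0 in Ccna2-MO and 2 in the mean, and no member's call on its brightest probe set changed. The Prpf38a change in Ccna2-MO embryos reversed to 0.10 with the mean of its probe sets, and the Sf3b3 change in Oct4-MO embryos to -0.0078 without Oct4-MO replicate 2 (up to 0.71 without other single arrays). The causes were not tested.

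Over all probe sets, 33 were called in Oct4-MO embryos, against 4 with the block, 452 with all 6 uninjected arrays, 0 with only the 6 arrays of the comparison, 16 without the intensity trend, 18 with 64 added, 92 with the brighter probe sets, 257 with array weights and 0 by the unpaired t statistic alone (4292 before adjustment). In Ccna2-MO embryos the 336 became 124, 437, 3, 255, 323, 711, 87 and 0 (4242 before adjustment) in the same order. The median change of the members ranged from -0.35 to -0.05 in Oct4-MO, from -0.36 to -0.09 in Ccna2-MO and from -0.28 to -0.15 in the mean over the alternatives run. The alternatives for the 4 further genes called and for the other Snrpb2 probe set were chosen after seeing the data. With 3 arrays per group, small changes could not be measured for genes whose values varied between arrays. Up to 42.7% of probe sets of an array were under 16.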
